A study of Mus musculus with 2 samples.

Results

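Hairpins of the let-7 microRNA family were examined in the hindbrain of mouse embryos, 8 of 1973 microRNA genes in the count tables. The 8 were chosen by gene symbol: Mirlet7b, Mirlet7c-2, Mirlet7d, Mirlet7f-2, Mirlet7g, Mirlet7i and Mir98 by their own entries, and Mirlet7e through Gm25927, an entry on the opposite strand of its locus. The series has a single group, hindbrain of B6NCrl embryos at embryonic day 16.5, healthy, with males and females pooled. It holds 2 libraries of small RNA, named biological replicates and each made from a pool of embryos. Replicate 2 came from 37 embryos, and the size of the replicate 1 pool is not given in the sources used here. There is thus no contrast between conditions, and what follows concerns levels, their order, and the agreement of the 2 pools.

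The let-7 microRNAs were found in Caenorhabditis elegans as timers of late development, and vertebrates carry many copies. A primary transcript is cut to a hairpin and then to a short duplex, from which the 5p strand usually enters Argonaute and silences messenger RNAs that pair with its seed, bases 2 to 8. Known targets include Lin28a, Lin28b and Hmga2. LIN28 proteins in turn bind let-7 precursors and block their maturation, and let-7 accumulates as LIN28 declines. In neural progenitors of the mouse let-7b is known to restrain proliferation.

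The mature 5p sequences of the 8 hairpins, taken from RefSeq on GRCm38.p6, are shown first because all counts below depend on how well a read can tell them apart. All 8 members matched a RefSeq entry. Capitals mark the seed.

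let-7g-5p: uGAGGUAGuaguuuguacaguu

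let-7i-5p: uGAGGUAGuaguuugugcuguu

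let-7d-5p: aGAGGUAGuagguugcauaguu

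let-7b-5p: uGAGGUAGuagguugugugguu

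let-7e-5p: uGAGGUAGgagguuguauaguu

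miR-98-5p: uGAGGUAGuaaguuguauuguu

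let-7f-5p: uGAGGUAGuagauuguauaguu

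let-7c-5p: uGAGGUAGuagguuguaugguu

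The seed is the same in all 8, so the differences lie in base 1 and from base 9 on. A ninth sequence, let-7a-5p, comes from the hairpins Mirlet7a-1 and Mirlet7a-2.

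let-7a-5p: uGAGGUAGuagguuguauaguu

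Over these 9 sequences, each 22 bases long, 14 positions were identical and 8 varied. Counting from 1 at the 5′ end, let-7i-5p differs from let-7g-5p by A17G and A19U, and let-7c-5p differs from let-7b-5p by G17A alone. let-7a-5p differs by 1 base each from let-7e-5p (U9G, the let-7a base first), let-7f-5p (G12A) and let-7c-5p (A19G). Thus 4 of the 36 pairs differ by 1 base, and the most distant pair, let-7i-5p and let-7d-5p, by 6.

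**Figure D1:**
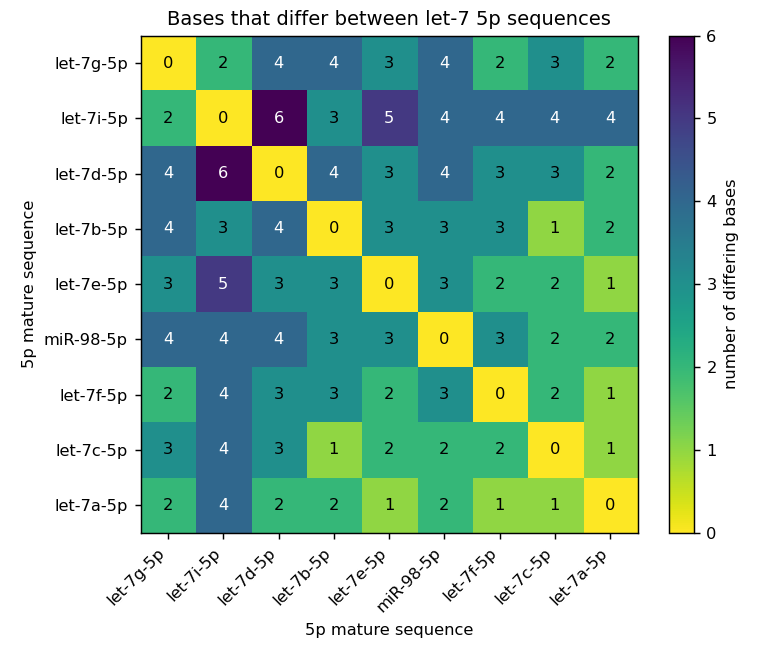
Number of bases that differ between each pair of the 9 distinct let-7 5p sequences, with the sequences on both axes in the same order and the number printed in each cell. let-7a-5p lies 1 base from let-7e-5p, let-7f-5p and let-7c-5p, while let-7i-5p and let-7d-5p differ by 6 bases.

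The hairpins also differ in whether their arms are shared with another locus. Each arm was searched for as an exact match in 1005 RefSeq mouse hairpins. Neither arm was found elsewhere for 6 hairpins, which are Mirlet7g, Mirlet7i, Mirlet7d, Mirlet7b, Mirlet7e and Mir98. Mirlet7f-2 shares its 5p arm with Mirlet7f-1. Mirlet7c-2 shares its 5p arm with Mirlet7c-1 and its 3p arm with Mirlet7a-1, so neither of its mature products identifies it. The copies are printed here with both arms in capitals, to show which arms they share.

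Mirlet7f-2: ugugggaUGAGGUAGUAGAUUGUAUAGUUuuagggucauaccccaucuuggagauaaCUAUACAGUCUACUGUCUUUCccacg

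Mirlet7f-1: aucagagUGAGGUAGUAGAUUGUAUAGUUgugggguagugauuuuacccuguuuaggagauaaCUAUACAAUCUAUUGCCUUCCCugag

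Mirlet7c-2: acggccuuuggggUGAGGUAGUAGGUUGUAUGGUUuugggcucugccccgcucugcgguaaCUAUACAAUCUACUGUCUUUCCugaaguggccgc

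Mirlet7c-1: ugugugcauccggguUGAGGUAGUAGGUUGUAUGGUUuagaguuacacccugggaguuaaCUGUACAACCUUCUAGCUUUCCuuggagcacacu

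Mirlet7a-1: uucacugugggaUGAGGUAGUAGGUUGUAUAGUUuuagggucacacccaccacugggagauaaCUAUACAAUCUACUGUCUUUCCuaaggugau

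Stretches in common were sought among 12 let-7 hairpins, without Mirlet7j and Mirlet7k. The longest stretch that a member had in common with another of these was 26 bases for Mirlet7c-2 (with Mirlet7a-1) and 22 bases for Mirlet7f-2 (with Mirlet7f-1). It was 19 bases for Mirlet7g, Mirlet7i and Mirlet7b, 17 for Mir98, 15 for Mirlet7e and 14 for Mirlet7d. The libraries cover RNA under 30 nt, per the labels, and the deposited tables give reads that map to several places only as 1 total. A full-length read of the let-7f, let-7c or let-7a 5p arm fits 2 loci, so counts at these hairpins can lie below the amount of microRNA they make, and their levels are uncertain.

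The counts of the 8 members came to 14.7% ± 0.410 of the sense total (SD, n = 2). That total does not hold the counts of Mirlet7e, which come from the opposite strand. The 7 members with their own entry held 14.1% ± 0.419 of it. With reads that map to several places added to the total only, the 8 members came to 8.37%. Any let-7 reads among those were not added to the members. For the 8 members the share of the sense total was 14.41% in replicate 1 (exact binomial 95% interval 14.38% to 14.44%). It was 14.99% in replicate 2 (14.95% to 15.02%), and the intervals of the pools did not overlap. In a tissue of mixed cells, fewer cells of a type and less RNA per cell cannot be told apart. Sense counts were 5097205 in replicate 1 and 4460836 in replicate 2, and levels are given as CPM, counts per 1000000 of them. All 8 members had at least 10 counts in both libraries, as did 386 entries in all.

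Mirlet7g was the most abundant member. It had 348584 counts (68387 CPM) in replicate 1 and 330034 counts (73985 CPM) in replicate 2, second of all genes in both libraries. It supplied 48.4% ± 1.34 of the 8 members' counts. Mirlet7g lies on the plus strand of chromosome 9 (106178840 to 106178927, mm10), in an intron of Wdr82, a subunit of histone methyltransferase complexes.

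Mirlet7i followed with 230954 counts (45310 CPM) in replicate 1 and 197444 (44262 CPM) in replicate 2, or 30.5% ± 1.36 of the members' counts. It is on the minus strand of chromosome 10 (122985640 to 122985724), within an exon of the transcribed pseudogene D630033A02Rik. Mirlet7g and Mirlet7i together made up 78.9% of the members' counts in each library. Both are the sole locus of their mature sequences among the hairpins searched, and their 5p sequences are 2 bases apart.

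The middle of the order was held by Mirlet7d and Mirlet7b at nearly equal levels. Mirlet7d had 8627 CPM in replicate 1 and 8804 CPM in replicate 2, a mean of 8716 ± 125 CPM. Mirlet7b had 7894 and 8956 CPM, a mean of 8425 ± 751 CPM (SD, n = 2 each). Mirlet7d was thus the higher in replicate 1 and Mirlet7b in replicate 2.

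Mirlet7e had no sense entry of its own and was read from the opposite strand of Gm25927 (chromosome 17, 17830343 to 17830459, minus strand), inside which Mirlet7e lies on the plus strand (17830352 to 17830444) in an intron of the sperm gene Spaca6. The strand of Mirlet7e held 29047 counts in replicate 1 and 24901 in replicate 2, or 5640 ± 82.4 CPM. The strand of Gm25927 itself held 0 counts in both libraries, below an upper limit of 0.589 CPM for replicate 1 and 0.673 CPM for replicate 2. All reads at this position were therefore on the Mirlet7e strand.

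Mir98 had 24179 counts (4744 CPM) in replicate 1 and 21462 (4811 CPM) in replicate 2. Its neighbour Mirlet7f-2 had 13878 counts (2723 CPM) and 12785 (2866 CPM). Both lie on the plus strand of the X chromosome in an intron of Huwe1, a ubiquitin ligase gene, Mirlet7f-2 from 151912346 to 151912428 and Mir98 from 151913214 to 151913321.

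Mirlet7c-2 was the lowest member, with 3457 counts (678 CPM) in replicate 1 and 2666 (598 CPM) in replicate 2. It lies 621 bases upstream of Mirlet7b on the plus strand of chromosome 15, and both are in exons of the noncoding gene Lncppara. From Mirlet7g to Mirlet7c-2 the 8 members covered levels of 71186 ± 3958 to 638 ± 57.0 CPM (SD, n = 2 each).

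**Figure D2:**
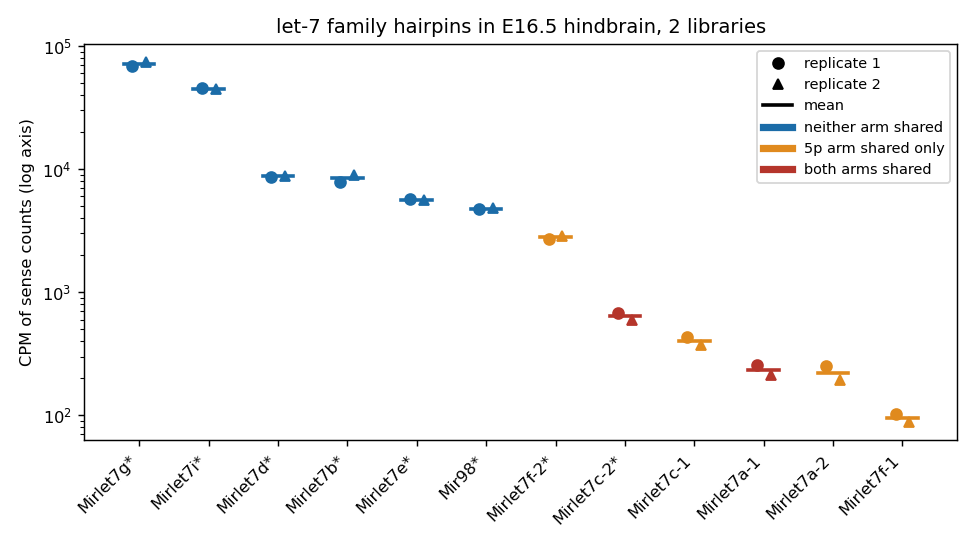
CPM of sense counts on a log axis for 12 let-7 hairpins in order of mean level, with a circle for replicate 1, a triangle for replicate 2 and a bar for their mean. Stars mark the 8 members, and colours show whether a mature arm is shared with another locus. The 6 hairpins with neither arm shared lie between 4777 and 71186 CPM, and the 6 with a shared arm between 95.5 and 2794 CPM.

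Neighbours in this order were compared by their count ratio within each library, which does not depend on library size. A difference was called where both libraries gave a log2 ratio of 1 sign with a mean beyond 2 SD. With 2 libraries the smallest p of an exact sign-flip test is 0.5, so this rule covers only the spread between the pools. The order was read from the same counts, so the direction of each ratio is not independent evidence. Pairs without a let-7 hairpin were not put through this rule, so a count of pairs that met it describes only the pairs compared.

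Of the 7 neighbouring pairs 6 met the rule. Mirlet7g exceeded Mirlet7i by a log2 ratio of 0.59 in replicate 1 and 0.74 in replicate 2, a mean of 0.67 ± 0.10 or 1.59-fold. Mirlet7i exceeded Mirlet7d by 2.36 ± 0.04, the widest gap of the order at 5.14-fold. Mirlet7b exceeded Mirlet7e by 0.58 ± 0.15, Mirlet7e exceeded Mir98 by 0.24 ± 0.04, and Mirlet7f-2 exceeded Mirlet7c-2 by 2.13 ± 0.18 (log2, SD, n = 2). Mirlet7f-2 and Mirlet7c-2 each share a 5p arm with another locus, and the part of multimapping in their ratio was not tested.

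Mirlet7d and Mirlet7b were the exception. Their log2 ratio was 0.13 in replicate 1 (exact binomial 95% interval 0.11 to 0.15) and -0.02 in replicate 2 (-0.045 to -0.0046), a mean of 0.05 ± 0.11. The 2 pools gave opposite signs, each beyond counting error, and the levels of these 2 hairpins did not differ beyond the spread between pools.

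For hairpins grouped as 1 locus, the ratio shows how unequal their counts can be. Of 9 such pairs 8 met the rule, again a description of these pairs only. Mir98 exceeded Mirlet7f-2, 785 bases away, by 0.77 ± 0.04 or 1.71-fold. Mirlet7b exceeded Mirlet7c-2 by 3.72 ± 0.26 or 13.2-fold. On chromosome 13 the hairpins Mirlet7d, Mirlet7f-1 and Mirlet7a-1 lie on the minus strand in exons of the long noncoding gene 6720427I07Rik, and Mirlet7d (48536012 to 48536114) exceeded Mirlet7a-1 by 5.22 ± 0.21 or 37.3-fold. In each of these 3 pairs the lower hairpin has a 5p arm that another locus shares and the higher does not. The part of multimapping in these ratios was not tested.

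Other let-7 hairpins sit beside microRNAs of the miR-99/100 and miR-125 families. The miR-125 microRNAs are the vertebrate homologues of lin-4, the other timing microRNA of Caenorhabditis elegans. Mirlet7e lies between Mir99b, 94 bases upstream, and Mir125a, 367 bases downstream. Mirlet7e was lower than Mir99b by a log2 ratio of -1.77 ± 0.03, with -1.79 in replicate 1 and -1.75 in replicate 2. Over Mir125a its ratio was 0.19 in replicate 1 and 0.41 in replicate 2, a mean of 0.30 ± 0.16, within the limit of 2 SD. Of the 9 pairs, Mirlet7e over Mir125a had the ratio nearest to 0.

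The clusters on chromosomes 16 and 9 gave far lower values for their let-7 hairpins. Mirlet7c-1 had 2213 counts (434 CPM) in replicate 1 and 1676 (376 CPM) in replicate 2, and it lies 656 bases from Mir99a, the most abundant gene of the series at 176698 ± 14552 CPM. The log2 ratio of Mirlet7c-1 over Mir99a was -8.77 ± 0.27. Mirlet7a-2 had 1278 counts (251 CPM) and 861 (193 CPM), and its ratio over Mir100, 5211 bases upstream, was -7.47 ± 0.36. Mirlet7c-1 over Mir125b-2, 46522 bases away, was -2.42 ± 0.13, and Mirlet7a-2 over Mir125b-1, 45114 bases away, was -2.88 ± 0.16 (SD, n = 2). All 3 lin-4 homologues were detected, with Mir125a at 4598 ± 568 CPM, Mir125b-2 at 2156 ± 22.7 CPM and Mir125b-1 at 1623 ± 116 CPM. Mir125b-1 and Mir125b-2 also make 1 mature 5p sequence from 2 loci, so their counts carry the same limit as those of Mirlet7c-1 and Mirlet7a-2.

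**Figure D3:**
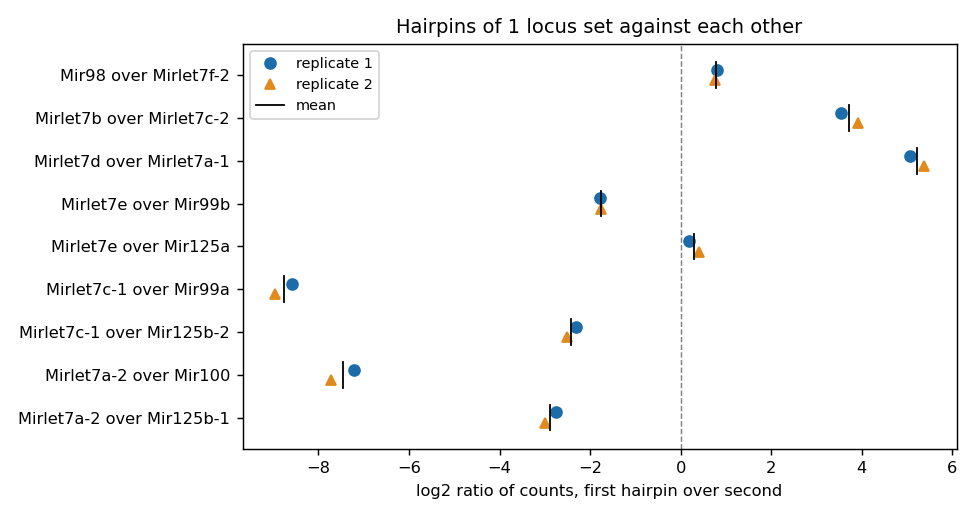
Log2 ratio of counts for 9 pairs of hairpins that lie at 1 locus, the first named over the second, with a circle for replicate 1, a triangle for replicate 2 and a line for the mean. Mir98 over Mirlet7f-2, Mirlet7b over Mirlet7c-2 and Mirlet7d over Mirlet7a-1 lie above 0, and Mirlet7c-1 over Mir99a lies lowest at -8.77.

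The family has further hairpins besides the 8. Mirlet7a-1 had 1308 counts (257 CPM) in replicate 1 and 948 (213 CPM) in replicate 2. Mirlet7f-1 had no sense entry, and the opposite strand of Gm24111 at its position held 524 counts (103 CPM) and 393 (88.1 CPM). Mirlet7j had 346 counts (67.9 CPM) and 268 (60.1 CPM). Its mature sequence has the seed GAGGUAU in place of GAGGUAG, and over its first 22 bases it differs from let-7i-5p by G8U alone. Mirlet7k had 0 and 3 counts. The counts of all 14 let-7 hairpins came to 14.8% ± 0.397 of the sense total. Of these let-7 counts the 8 members supplied 99.2% in replicate 1 and 99.4% in replicate 2. These are shares of counts that leave out reads mapping to several places. Mirlet7c-1, Mirlet7a-1, Mirlet7a-2 and Mirlet7f-1 each share a mature arm with another locus, so the microRNA they make can exceed their counts. The part of such reads in these shares was not tested. One other RefSeq microRNA has the let-7 seed, miR-1961 (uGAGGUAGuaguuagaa), and Mir1961 had 0 counts in both libraries.

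Summed over their 2 loci, the let-7f hairpins had 2890 ± 91.0 CPM, the let-7c hairpins 1043 ± 98.3 CPM and the let-7a hairpins 456 ± 72.0 CPM (SD, n = 2 each). Within these pairs of identical 5p arms, compared after their values were seen, Mirlet7f-2 exceeded Mirlet7f-1 by a log2 ratio of 4.88 ± 0.21 and Mirlet7c-2 exceeded Mirlet7c-1 by 0.66 ± 0.02. Mirlet7a-1 over Mirlet7a-2 was 0.03 in replicate 1 and 0.14 in replicate 2, a mean of 0.09 ± 0.07, within the limit of 2 SD. Multimapping reads came to 3802165 in replicate 1 and 3410352 in replicate 2, or 5.18 and 5.10 times the counts of all 8 members. How many of them are let-7 was not tested.

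The bases between the arms hold the part of the precursor that LIN28 is known to bind, in many let-7 precursors at the motif GGAG. The stretch between the 2 arms is printed for 7 members, with GGAG in capitals wherever it occurs on the hairpin's own strand.

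Mirlet7g: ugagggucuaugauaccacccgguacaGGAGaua

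Mirlet7i: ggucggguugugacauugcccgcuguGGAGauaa

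Mirlet7d: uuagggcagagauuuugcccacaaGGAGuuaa

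Mirlet7b: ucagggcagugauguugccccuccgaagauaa

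Mirlet7e: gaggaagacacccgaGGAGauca

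Mirlet7f-2: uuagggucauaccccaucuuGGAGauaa

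Mirlet7c-2: uugggcucugccccgcucugcgguaa

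GGAG was present in 5 of these 7 members, Mirlet7g, Mirlet7i, Mirlet7d, Mirlet7e and Mirlet7f-2, where it ended 3 or 4 bases before the 3p arm. The letters were not in this window in Mirlet7b and Mirlet7c-2. The 5 members with GGAG lay between 2794 and 71186 CPM, and the 2 without it at 638 and 8425 CPM, so the ranges overlapped. The lowest of each group, Mirlet7f-2 and Mirlet7c-2, have a 5p arm that another locus shares. The part of multimapping in these ranges was not tested. Among 644 RefSeq hairpins with both arms annotated, 8.07% held GGAG between the arms, though that stretch varies in length. In a fixed window of the 20 bases before the 3p arm, the share was 9.94%, and the same 5 members held it. A match describes the letters only.

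The members' values differed little between the 2 pools. With plain totals the absolute log2 ratio between the libraries had a median of 0.05 over the 8 members and was at most 0.18. Its median was 0.19 over the 386 detected entries and 0.15 over the 115 with at least as many counts as Mirlet7c-2. With totals scaled by TMM, a method that sets the typical gene as unchanged, the median was 0.11 over the members, with a highest value of 0.25, against 0.18 and 0.15 over the same sets of entries. An exact two-sided binomial test of replicate 2 against replicate 1, with totals scaled by TMM and Benjamini-Hochberg adjustment over all 402 entries tested, allows for counting noise only. It called all 8 members, against a background of 46.5% of entries called. Plain totals gave 7 members (48.3% of entries, Mir98 not called), DESeq2 size factors 7 (46.3%, Mirlet7e not called) and reads on either strand 7 (47.2%). No minimum count gave 8 (24.4%) and a minimum of 100 gave 8 (59.7%). Deeply counted genes pass this test on small differences. Of the 115 entries with at least as many counts as Mirlet7c-2, 82.6% were called. The exact test of edgeR between the libraries used a biological coefficient of variation assumed at 0.1. At adjusted p of 0.05 it called 0 of the 8 members, with 1.74% of entries called. Its lowest unadjusted p for a member was 0.227, for Mirlet7b. Both tests compare the libraries, not conditions.

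By direction, the binomial test placed 7 members higher in replicate 2 (22.1% of all entries) and 1, Mirlet7c-2, higher in replicate 1 (24.4%). Mirlet7b had a log2 ratio of replicate 2 over replicate 1 of 0.25 (exact binomial 95% interval 0.23 to 0.27), Mirlet7g was at 0.18 (0.17 to 0.19) and Mirlet7f-2 was at 0.14 (0.10 to 0.17). Mirlet7c-2 was at -0.12 (-0.19 to -0.044). With plain totals Mirlet7b and Mirlet7c-2 were equally far from 0, at 0.18 and -0.18. Mirlet7d and Mir98 were at 0.09 each. Mirlet7i at 0.03 and Mirlet7e at 0.035 turned negative with plain library totals, at -0.03 each. With plain totals, which shift every log2 ratio by -0.06, the test called 4 members higher in replicate 2 and 3 in replicate 1 (15.4% and 32.8% of entries). The median log2 ratio was 0.09 over the members and -0.001 over all entries with TMM scaling, and 0.02 and -0.07 with plain totals.

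Of the 5 tested hairpins with a shared arm, 4 were called higher in replicate 1 by the exact binomial test with TMM scaling, and Mirlet7f-2 was called higher in replicate 2 (adjusted p = 2.77e-14). Over all entries tested the shares were 24.4% and 22.1%, and the count is a description of these hairpins only. The 4 were Mirlet7c-2 (adjusted p = 0.00425), Mirlet7c-1 at -0.14 (0.00552), Mirlet7a-1 at -0.21 (0.00216) and Mirlet7a-2 at -0.31 (3.41e-06). None of the 5 was called by edgeR's exact test. Mirlet7f-1, which also shares its 5p arm but was read from the opposite strand, was not put into these tests. The libraries also differed in the skeletal muscle microRNA Mir206, with 1884 counts in replicate 1 and 108 in replicate 2. The part of other tissue in the let-7 values was not tested.

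**Figure D4:**
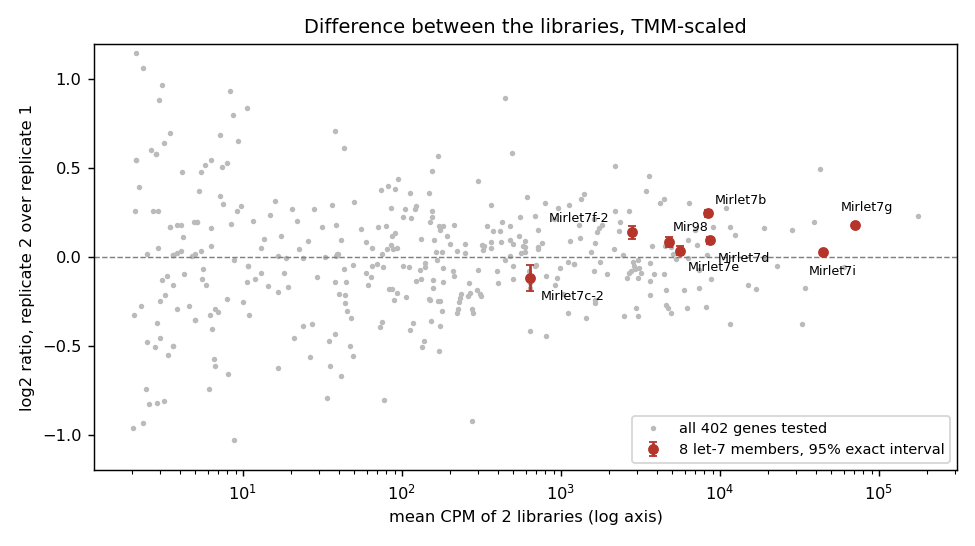
Log2 ratio of replicate 2 over replicate 1 after TMM scaling against mean CPM on a log axis, for all 402 entries tested in grey and the 8 let-7 members in red with exact binomial 95% intervals. The members lie between -0.12 and 0.25, and 8 grey entries lie outside the plotted range of 1.2 on either side.

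The non-family gene nearest in level to each member was found by its distance in log2(CPM + 1) over the 2 libraries, among detected genes. For Mirlet7g it was Mir10a (distance 0.374) at 60429 ± 3641 CPM, and for Mirlet7i it was Mir100 (0.307). Mir382 was nearest to both Mirlet7d (0.0843) and Mirlet7b (0.151). Mir151 was nearest to Mirlet7e (0.13), Mir381 to Mir98 (0.0533), Mir379 to Mirlet7f-2 (0.124) and Mir28a to Mirlet7c-2 (0.0211). These distances describe 2 libraries of 1 tissue, and similar levels say nothing else about the genes.

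The tissue label was checked against microRNAs known for place or cell type. The hindbrain-associated Mir10a and Mir10b of the Hox clusters held 9.34% ± 1.07 of sense counts (SD, n = 2). Of 10 counted neural hairpins 7 were detected, led by Mir137 at 8178 ± 1384 CPM. The neuronal hairpins Mir124a-1, Mir124a-2 and Mir124a-3 were low, at 3.62 ± 0.991, 1.42 ± 1.05 and 0.322 ± 0.178 CPM, and Mir9-2 was at 0.953 ± 0.238 CPM (SD, n = 2 each). The mature products of Mir124a, Mir9, Mir128 and Mir218 each come from several loci. The part of multimapping in these values, and in the sum of the neural list given below, was not tested. Markers of other cell types were also present. For replicate 1 and replicate 2 in turn, erythroid hairpins summed to 216 and 206 CPM, skeletal muscle hairpins (1 of 3 counted was detected) to 375 and 24.9 CPM, the liver microRNA Mir122 to 41.0 and 41.9 CPM, and myeloid Mir223 to 188 and 152 CPM. In the same order, endothelial Mir126a had 27475 and 29178 CPM, above the summed neural list at 12866 ± 978 CPM, and the choroid plexus and multiciliated list 9220 and 10046 CPM.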

How the data were processed

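Small RNA was sequenced from 2 pools of embryonic hindbrain, and each library has 1 table. Per the text deposited with each sample, the values are raw read counts per gene on mm10 with GENCODE annotation M4. The aligner and the counter: not given in the sources used here. A table has a count column for both strands together and 1 for each strand. The column of the strand that held most counts was taken as sense, and Mirlet7e and Mirlet7f-1 were read from the other. The 4 summary lines (52.6% and 53.0% of reads) stayed out of library totals. Identifiers were matched without version to GENCODE M21 on the same assembly (1894 of 1973), which gave coordinates and host genes. Sequences are from RefSeq on GRCm38.p6. The stretch between the arms of 1 member is not reported here.

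CPM uses the plain sense total of 5097205 counts in replicate 1 and 4460836 in replicate 2. This total leaves out the opposite-strand counts of Mirlet7e and Mirlet7f-1. Intervals are exact binomial at 95%, and the limit for 0 is 3 counts. Both cover counting error only, since PCR copies of a molecule cannot be recognised. The library test used entries with a summed count of at least 20. The binomial test was tested on simulated counts with counting noise and set differences only. They held no spread between pools, so they cannot show how the test behaves under such spread. The labels name the libraries biological replicates. Members and lists were chosen with earlier results of these data known. Named genes are the members, other let-7 hairpins, cluster partners, nearest genes in level and tissue markers. Mir1961 was added after the values were seen. Alternatives were the strand column, library total, TMM and DESeq2 scaling, members left out or added, count minimums, a pseudocount, edgeR's exact test and 1 replicate left out. Scaling used edgeR 4.0.16 and DESeq2 1.42.0 in R 4.3.3. Tests used scipy 1.17.1, numpy 2.4.6 and pandas 2.3.3 in Python 3.11.15, with figures from matplotlib 3.10.9.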

Additional observations from a re-analysis of the deposited data

Results flagged for a closer look

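Reads outside the counted sense entries were found at a let-7 locus. The opposite strand of Gm24111, where Mirlet7f-1 lies, held 524 counts for replicate 1 and 393 for replicate 2, above the 3 counts that a count of 0 allows. Reads that map to several places, which belong to no gene in these tables, numbered 3802165 in replicate 1 and 3410352 in replicate 2. Their share from let-7 copies was not tested.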

How the results depend on the processing

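The share of the 8 members, 14.7%, was 8.37% with multimapping reads added to the total but not to the members. It was 17.9% without Mir99a in the total and 14.1% without Mirlet7e. It moved by less than 1 SD with reads on either strand, TMM scaling, all other let-7 hairpins added or Mirlet7c-2 and Mirlet7f-2 left out, and was 14.41% to 14.99% with 1 replicate left out. The 8 members called between the libraries became 0 with edgeR's exact test, and 7 or 8 with other scaling, count minimums or strand. No pair ratio changed its side of 2 SD with reads on either strand or 0.5 counts added. With 1 replicate left out a ratio is a value with no test. No paired analysis was possible because the series has 1 group. The lowest member count in a library was 2666. Mirlet7c-2 and Mirlet7f-2 share arms with other loci, and the number of let-7 reads among those that map to several places was not tested.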
